A study of Danio rerio with 6 samples.

Results

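Zebrafish genes for making and for cutting chitin were followed in sorted intestinal epithelial cells of larvae at 3 and 5 days post fertilization (dpf). They are 7 of the 32520 genes in the count files. The chitin synthase gene chs1 and the chitinase genes chia.1 and chia.2 were taken by Ensembl identifier. The other chitinase copies, chia.3, chia.4, chia.5 and chia.6, were taken by gene name. Further chitin synthases, looked for as chs2 and chs3, matched no gene name and were not identified among the counted genes, so chs1 may not be the whole synthesis side. The group was selected on its measured levels in these libraries, for a joint rise of synthesis and breakdown genes from 3 to 5 dpf, so the values that compare the ages for these 7 genes are a description and carry no test.

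Chitin is a polymer of N-acetylglucosamine (GlcNAc). Chitin synthases are membrane enzymes that build it from the activated sugar UDP-GlcNAc, and chitinases of the glycosyl hydrolase type cut it. Mammals have lost chitin synthases but keep acidic chitinase, which is known there from the stomach and the lung. Zebrafish have both kinds of enzyme, and chitin has been described in the gut lumen of their larvae, where chs1 is transcribed by the epithelium.

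The cells came from wild-type embryos of the knock-in line TgKI(cldn15la:tdTomato)pd1249, in which the red fluorescent protein tdTomato marks cells that use the claudin gene cldn15la. Bodies without heads were pooled and dissociated, and live cells were sorted. Each age had 3 libraries, each a pool of many animals, all with the batch label 1. All 6 libraries carry the knock-in, and the non-transgenic controls of the design text were not analysed here. The sample titled 3 dpf replicate 3 has an age tag of 4 dpf and was kept with its title.

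Library totals ran from 102653637 to 125456069 counts. The sort marker cldn15la stood at 525 to 690.4 CPM (counts scaled to a common library size with TMM factors) at 3 dpf and at 347 to 900.4 CPM at 5 dpf. Enterocyte markers were abundant in every library, with a summed level of 1257 to 1894 CPM at 3 dpf and 5494 to 19345 CPM at 5 dpf. Markers of other cells were also present. At 3 dpf the epidermis list summed to 2869, 2433 and 2378 CPM, above the enterocyte list in each library. Nearly all of it was krt4, at 2735, 2378 and 2307 CPM. That order thus rested on 1 gene, and the other epidermis markers together were far below the enterocyte list. The skeletal muscle list summed to 861 to 1391 CPM at 3 dpf and to 52.4 to 484 CPM at 5 dpf. At 5 dpf the acinar pancreas list summed to 347.5 to 1189 CPM, the smooth muscle and mesenchyme list to 1221 to 2145 CPM and the leukocyte list to 19.9 to 46.7 CPM. The library of 5 dpf replicate 1 stood apart, with 29.2% of its counts from the mitochondrial chromosome against 7.91 to 11.4% in the other 5.

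The 7 genes lie at 3 places in the genome (GRCz11, coordinates of the count files). The chitinase genes chia.1 (ENSDARG00000100635, chromosome 11, 23993298 to 24000171), chia.2 (ENSDARG00000099185, 24001993 to 24008739) and chia.3 (ENSDARG00000009612, 24013769 to 24016813) follow each other within 23.5 kb. The first 2 are on the plus strand and chia.3 is on the minus strand, and no other annotated gene lies between them. The genes chia.4 (ENSDARG00000008541, chromosome 23, 17926279 to 17933143), chia.5 (ENSDARG00000116259, 17939611 to 17948125) and chia.6 (ENSDARG00000093193, 17980875 to 17993663) form a second row of 3 within 67.4 kb, all on the plus strand. The chitin synthase gene chs1 (ENSDARG00000068515) stands apart from them on chromosome 13, at 285874 to 303137 on the minus strand. Reads that fit several copies may be missing from counts of a gene family, so levels of single chitinase copies are uncertain.

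The synthase gene and the chitinase genes of chromosome 11 were far higher at 5 dpf, and those of chromosome 23 were not clearly so. In 4 of the 7 genes, namely chs1, chia.1, chia.2 and chia.3, every 5 dpf library lay above every 3 dpf library. That held for 26.1% of the 22386 genes tested, and 24.2% did not overlap in the other direction. The same 4 passed the adjusted p threshold of 0.05 of the edgeR quasi-likelihood test in the direction of 5 dpf, which 18.1% of all genes tested did (32.1% in either direction). Since the rule used this comparison, nothing is read from these shares. In pooled sorted cells, more cells of a type and more RNA per cell cannot be told apart.

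chs1, which makes the polymer, measured 14.1, 27.9 and 10.2 CPM in 3 dpf replicates 1, 2 and 3. At 5 dpf the same gene measured 745.8, 130.5 and 135.1 CPM. Each 5 dpf library was thus well above the highest 3 dpf library, and 5 dpf replicate 1 was far above the other 5 dpf libraries. The means were 17.4 ± 9.32 and 337 ± 354 CPM (SD, n = 3 per age), a ratio of 19.4 and a fitted log2 difference of 4.28 (SE 0.83). Leaving out 5 dpf replicate 1 lowered the fitted log2 difference to 2.94.

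chia.2, also a chitinase gene, had the largest difference between the ages of the 7. Its level was 8.998, 50.9 and 10.5 CPM in the 3 dpf replicates and 9408, 1388 and 1862 CPM in the 5 dpf replicates. By mean CPM, which favours long transcripts, it moved from place 6097 among all genes at 3 dpf to place 16 at 5 dpf. The mean went from 23.4 ± 23.8 to 4219 ± 4499 CPM (SD, n = 3 per age), a ratio of 180.02, and the fitted log2 difference was 7.49 (SE 1.21). It moved to 6.13 when 5 dpf replicate 1 was left out and to 8.74 when 3 dpf replicate 2 was, the libraries with the highest value of each age.

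The neighbouring gene chia.1 was highest in the same libraries. It measured 4.73, 23.9 and 6.66 CPM at 3 dpf, then 1537, 252.6 and 313 CPM at 5 dpf. The ages did not overlap, and the means were 11.8 ± 10.6 and 701 ± 724 CPM (SD, n = 3 per age). The ratio of means was 59.5 and the fitted log2 difference 5.90 (SE 1.03), with 4.60 when 5 dpf replicate 1 was left out and 6.92 when 3 dpf replicate 2 was.

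chia.3, the third copy of the row, measured 1.097, 2.84 and 1.096 CPM at 3 dpf, then 36.1, 8.58 and 7.19 CPM at 5 dpf. Again the ages did not overlap and the same library was highest in each. The means were 1.68 ± 1.01 and 17.3 ± 16.3 CPM (SD, n = 3 per age), the ratio was 10.3, and the fitted log2 difference was 3.36 (SE 0.74), with 2.24 when 5 dpf replicate 1 was left out and 3.96 when 3 dpf replicate 2 was.

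**Figure D1:**
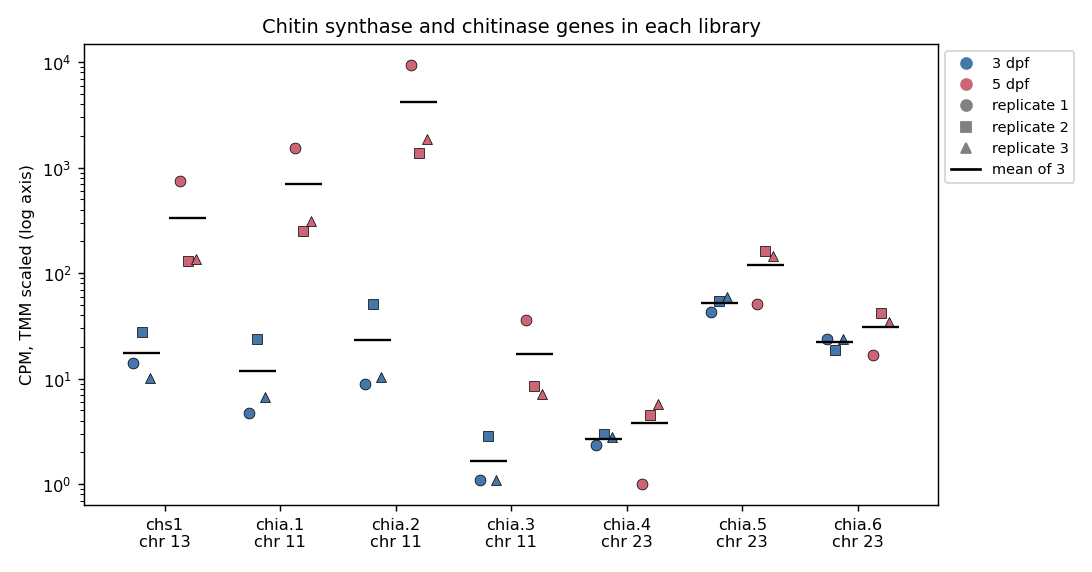
Level of each gene in each library in CPM scaled by TMM (log axis), with the chromosome under the gene name. Symbols mark the replicate, colours the age and black lines the mean of 3 libraries. For chs1 and chia.1 to chia.3 all 5 dpf points lie above all 3 dpf points, while for chia.4, chia.5 and chia.6 the 5 dpf replicate 1 point lies among or below the 3 dpf points.

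The 3 chitinase genes of chromosome 23 were present at 3 dpf, as were chs1 and the chitinase genes of chromosome 11. chia.5 measured 42.9, 54.1 and 59.6 CPM in the 3 dpf replicates and 51.5, 162 and 145.8 CPM in the 5 dpf replicates. The ages overlapped, because 5 dpf replicate 1 lay within the range of 3 dpf while the other 5 dpf libraries lay above it. The means were 52.2 ± 8.51 and 119.8 ± 59.7 CPM (SD, n = 3 per age), with a fitted log2 difference of 1.20 (SE 0.41).

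chia.6 measured 23.7, 18.7 and 23.9 CPM at 3 dpf, then 16.9, 41.9 and 34.8 CPM at 5 dpf. chia.4 measured 2.37, 2.96 and 2.80 CPM at 3 dpf, then 0.995, 4.54 and 5.78 CPM at 5 dpf. For both genes 5 dpf replicate 1 was the lowest of all 6 libraries and the other 5 dpf libraries were the highest. The fitted log2 difference was 0.50 (SE 0.33) for chia.6 and 0.48 (SE 0.57) for chia.4. Without 5 dpf replicate 1 it was 1.56 for chia.5, 0.80 for chia.6 and 0.93 for chia.4. Each of these 3 genes had a smaller difference between the ages than each of the other 4, also with that library left out. No pair of these differences was tested, since all come from the comparison that chose the genes.

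To compare genes with each other, CPM were divided by the exon length in kilobases (kb). At 3 dpf the order by mean level per length was chia.5 with 27.7 ± 4.52 CPM per kb, chia.6 with 10.1 ± 1.34, chia.2 with 7.55 ± 7.66, chia.1 with 4.19 ± 3.76, chs1 with 3.62 ± 1.94, chia.4 with 1.18 ± 0.13 and chia.3 with 0.75 ± 0.45 (SD, n = 3). chia.5 led in 3 of 3 libraries, and chia.3 was last in 3 of 3. The ranges of chia.6, chia.2, chia.1 and chs1 overlapped between neighbours in that order, and so did those of chia.4 and chia.3.

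At 5 dpf the order was chia.2 with 1360 ± 1450 CPM per kb, chia.1 with 249 ± 258, chs1 with 70.1 ± 73.6, chia.5 with 63.6 ± 31.7, chia.6 with 14.3 ± 5.89, chia.3 with 7.76 ± 7.33 and chia.4 with 1.65 ± 1.09 (SD, n = 3). These SDs are wide because 5 dpf replicate 1 differs from the others, and the ranges of chia.2, chia.1 and chs1 overlapped between neighbours in the order, but chia.2 was first and chia.1 second in 3 of 3 libraries. chs1 exceeded chia.5 in 5 dpf replicate 1, at 155 against 27.4 CPM per kb. In 5 dpf replicates 2 and 3 chia.5 was the higher, at 86.1 and 77.4 against 27.1 and 28.1 CPM per kb. chia.4 was last in 3 of 3 libraries.

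The makeup of the summed chitinase level therefore differed between the ages. The genes of chromosome 23 held 87.2, 59.6 and 87.5% of the summed CPM per kb in the 3 dpf replicates. They held 0.978, 16.5 and 11.8% in the 5 dpf replicates. The ages did not overlap in this share, which does not depend on library scaling. By itself chia.2 held 6.74 to 25.3% at 3 dpf and 69.0 to 83.5% at 5 dpf.

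The summed level per length of chia.4, chia.5 and chia.6 was 34.6 to 43.8 CPM per kb at 3 dpf and 35.5 to 107 CPM per kb at 5 dpf. For chia.1, chia.2 and chia.3 the sum was 5.08 to 26.2 CPM per kb at 3 dpf and 541 to 3595 CPM per kb at 5 dpf. The change in share thus came with a large difference in the chromosome 11 sum and overlapping ranges of the chromosome 23 sum.

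**Figure D2:**
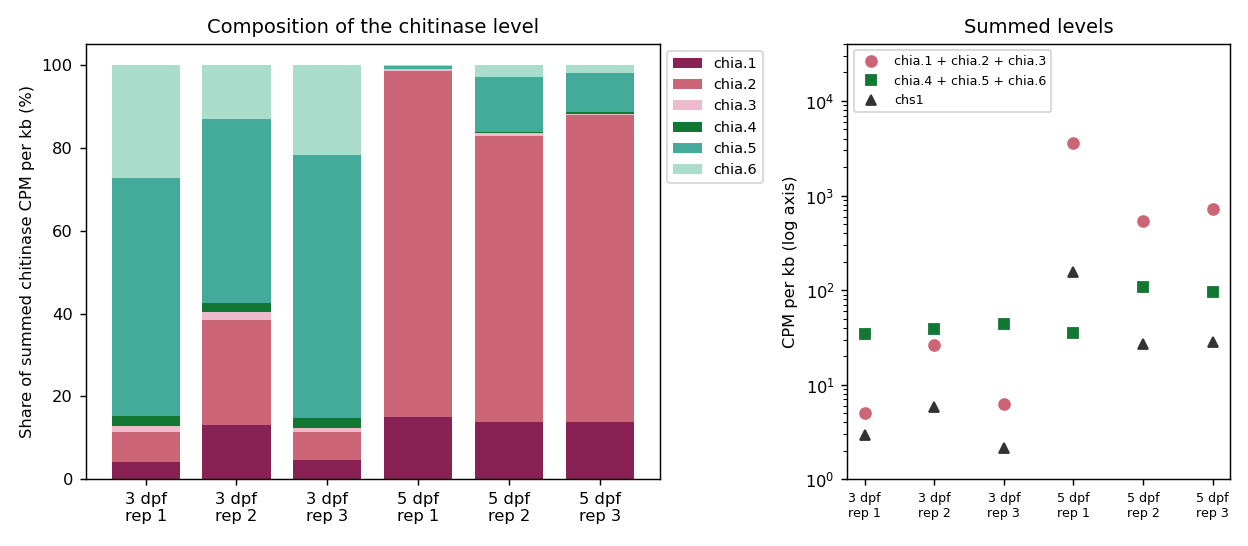
Left, share of each chitinase gene in the summed chitinase CPM per kb of each library. Right, summed CPM per kb (log axis) of the chitinase genes of chromosome 11 (chia.1 to chia.3), of chromosome 23 (chia.4 to chia.6) and of chs1 alone. The green chromosome 23 genes make up most of the level at 3 dpf and at most 16.5% at 5 dpf.

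At 5 dpf some ratios between genes were steady over libraries whose levels were not. The summed level per length of chia.1, chia.2 and chia.3 was 23.2, 20.0 and 25.5 times that of chs1 in 5 dpf replicates 1, 2 and 3. Over the same libraries the level of chs1 itself spanned 27.1 to 155 CPM per kb. At 3 dpf that ratio was 1.74, 4.51 and 2.93, so it was lower in every 3 dpf library than in any 5 dpf library. It was not steady there, where chs1 itself spanned 2.13 to 5.81 CPM per kb. The level of all 6 chitinase genes per chs1 level was 13.6, 11.1 and 23.5 at 3 dpf and 23.4, 23.9 and 28.9 at 5 dpf, where the ages overlapped. Its mean was 16.1 at 3 dpf and 25.4 at 5 dpf, and 7.22 and 15.5 when levels were not divided by length.

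Within the row on chromosome 11, the level of chia.2 per length was 1.72, 1.93 and 1.42 times that of chia.1 in the 3 dpf replicates. At 5 dpf it was 5.54, 4.98 and 5.38 times that of chia.1. On chromosome 23, chia.5 exceeded chia.6 by 2.105 to 3.36 times at 3 dpf and by 3.54 to 4.86 times at 5 dpf. Both ratios had ranges that did not overlap between the ages. The part of reads lost or shared between similar copies in these ratios was not tested.

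Libraries of 1 age also differed along these lines. In 5 dpf replicate 1 the level was 5.62 times the mean of the other 5 dpf libraries for chs1, 5.43 times for chia.1, 5.79 times for chia.2 and 4.59 times for chia.3. In the same library chia.4, chia.5 and chia.6 stood at 0.193, 0.335 and 0.44 times that mean. On the log2 scale the first 4 genes lay at 2.197 to 2.53, and chia.4, chia.5 and chia.6 at -2.37, -1.58 and -1.18. Over 21860 genes tested with a value, the median of this log2 ratio was -0.03 and the quartiles were -0.73 and 0.63, so all 7 lay outside the quartiles. With library size as the only scaling the first 4 lay at 1.23 to 1.55 and the others at -3.35 to -2.15, with no change of direction. As 1 library is set against 2, this comparison has no test.

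At 3 dpf, replicate 2 was the high library for chs1 and the chromosome 11 genes. Its level was 2.30 times the mean of the other 3 dpf libraries for chs1, 4.196 times for chia.1, 5.23 times for chia.2 and 2.59 times for chia.3. For chia.4, chia.5 and chia.6 the same ratio was 1.15, 1.06 and 0.786. So the 4 genes that stood high together at 5 dpf also stood high together in 1 library at 3 dpf.

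Marker genes of several cell types moved with these differences between libraries. Enterocyte markers, led by FABP2, a fatty acid binding protein gene, summed to 19345, 5494 and 6863 CPM in the 5 dpf replicates and to 1257, 1894 and 1279 CPM in the 3 dpf replicates. Like chs1 and chia.1 to chia.3, they were highest in 5 dpf replicate 1 and 3 dpf replicate 2, and 9 of the 11 enterocyte markers were highest in 5 dpf replicate 1 among the 5 dpf libraries. By TMM-scaled CPM the sort marker cldn15la was highest in the same libraries. It stood at 900.4 against 457 and 347 CPM at 5 dpf. At 3 dpf the lead was small, at 690.4 against 682 and 525 CPM. Markers of lysosome-rich enterocytes, which take up protein from the lumen, summed to 668, 197 and 225 CPM at 5 dpf. Among them dab2, the gene with the highest mean over all 6 libraries, was also highest in replicate 1 of the 5 dpf libraries.

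By TMM-scaled CPM the sums of some lists of other cells stood higher in that library too. Kidney tubule markers summed to 1348 against 597 and 533 CPM, and at 3 dpf they were highest in replicate 2, at 763 against 748 and 450.1 CPM. Most of each sum was 1 gene, SLC20A1, at 909, 428 and 355 CPM in the 5 dpf replicates. Of the 9 genes on this list 6 were highest in 5 dpf replicate 1 among the 5 dpf libraries. Whether kidney cells were present was not tested. Epidermis markers, led by krt4, summed to 5644 against 4166 and 3566 CPM in the 5 dpf libraries. Their log2 ratio of 0.55 lay within the quartiles of all genes tested (-0.73 and 0.63). The smaller differences of the goblet cell list (AGR2 most abundant) and the endocrine pancreas list (pdx1 most abundant) were 0.27 and 0.38 as a log2 ratio of replicate 1 to the mean of the others. Of the 4 endocrine pancreas markers only pdx1 was highest in that library, at 143.7 against 80.3 and 54.3 CPM. The other 3 were lowest there. With library size as the only scaling, the epidermis, goblet cell and endocrine pancreas sums were the lowest of the 5 dpf libraries there. Their direction in that library thus depends on the scaling.

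Lower in 5 dpf replicate 1, like chia.4 to chia.6, were the markers of leukocytes at 19.9 against 46.7 and 38.5 CPM, of BEST4-type cells at 758 against 1650 and 1378 CPM, and of smooth muscle and mesenchyme at 1221 against 2145 and 2114 CPM. Enteroendocrine markers summed to 4103 against 6480 and 5207 CPM. That library was the lowest of the 5 dpf libraries for 9 of 10 leukocyte markers, 5 of 5 BEST4-type markers, 9 of 11 mesenchyme markers and 7 of 9 enteroendocrine markers. The median log2 ratio of the tested markers in these lists, in that order, was -1.01, -0.86, -1.98 and -0.60. The quartiles over all genes tested were -0.73 and 0.63. No share of all genes stands beside these counts or those of other lists, as it was not computed for that library. The most abundant genes MPEG1, CFTR and PYY of the leukocyte, BEST4-type and enteroendocrine lists were lowest there as well. TAGLN, the most abundant gene of the mesenchyme list, went the other way, at 766 against 371 and 232 CPM. Skeletal muscle markers, with myhz2 most abundant, summed to 52.4 against 451 and 484 CPM. The log2 ratio of the sum was -0.92 for the erythrocyte list (hbae3 most abundant), -0.58 for the hepatocyte list (tfa) and -0.30 for the swim bladder list (anxa5b). The hepatocyte, swim bladder and enteroendocrine (-0.51) values lay within the quartiles of all genes tested. Acinar pancreas markers, with prss59.2 most abundant, summed to 402, 1189 and 347.5 CPM in the 5 dpf replicates and to at most 1.90 CPM at 3 dpf. No listed marker was at 0 in every library. The part of these cell types and of the mitochondrial share in the chitinase and chs1 values was not tested.

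**Figure D3:**
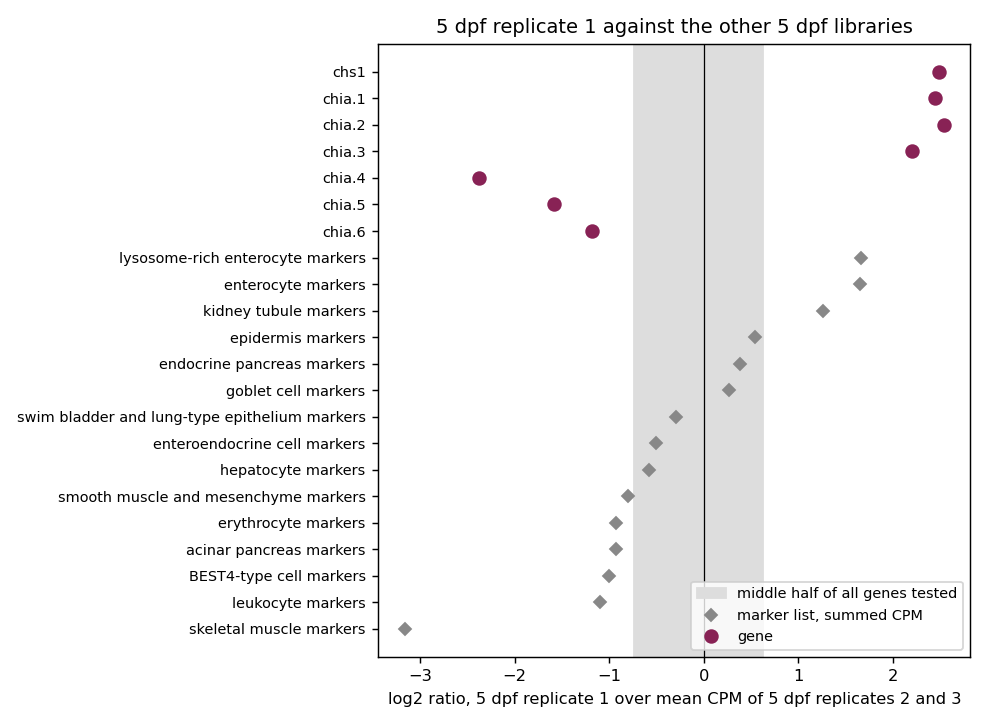
Log2 ratio of 5 dpf replicate 1 to the mean CPM of 5 dpf replicates 2 and 3, for each of the 7 genes (circles) and for the summed CPM of each cell type marker list (diamonds). The grey band runs from the lower to the upper quartile of all genes tested. chs1 and chia.1 to chia.3 lie right of the band, as do the enterocyte, lysosome-rich enterocyte and kidney tubule lists. chia.4 to chia.6 lie left of it. So do the skeletal muscle, leukocyte, BEST4-type, acinar pancreas, erythrocyte, and smooth muscle and mesenchyme lists. The epidermis, goblet cell and endocrine pancreas lists lie right of zero but inside the band.

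Genes of most similar profile were sought among 15965 other named genes with a mean of at least 1 CPM, by the Euclidean distance between log2 CPM over the 6 libraries after centring each gene. For chs1 the 5 nearest were zanl, cyp3a65, wu:fa56d06, si:ch211-196f2.3 and acp5b, at distances of 0.34 to 0.66. zanl measured 60.7, 132.7 and 41.9 CPM at 3 dpf, then 3742, 644 and 738 CPM at 5 dpf. It had the library order of chs1 at both ages. cyp3a65, a cytochrome P450 gene, measured 156, 316 and 102 CPM at 3 dpf, then 5693, 1304 and 1411 CPM at 5 dpf. Of the chitinase genes the nearest to chs1 was chia.3, at 1.07, with 33 of the named genes nearer than it, followed by chia.1 at 2.50 with 369 nearer.

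For chia.2 the 5 nearest were ASAH2, a ceramidase gene, ENPP7, a sphingomyelinase gene, cyp2x8, sult1st2 and cyp2ad6, at distances of 0.89 to 1.20. ASAH2 measured 0.506, 2.73 and 0.62 CPM at 3 dpf, then 312, 106 and 109 CPM at 5 dpf. chia.1 lay at 2.06 from chia.2, with 18 of the named genes nearer. For chia.5, added after its values were seen, the nearest were PCDH18, smpd2b, PTPRD, IGFBP5 and DOCK3, at 0.17 to 0.38. chia.6 lay at 0.98 from chia.5, with 529 of the named genes nearer, and chia.4 at 1.34, with 1557 nearer. The chromosome 11 genes and chs1 lay at 4.13 to 8.72 from chia.5. The 6 libraries are few and split by age, so many genes are near by this measure.

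Other genes that handle GlcNAc and chitin were tested, since they were not part of the rule. Their lists were, however, chosen with earlier results of these data known. Of the entries on 6 lists, 30 matched a gene symbol as written, 8 after a copy suffix was dropped and 6 not at all, giving 39 genes, of which 35 passed the filter on low counts. By edgeR's quasi-likelihood test with Benjamini-Hochberg adjustment over all genes, 12 of the 35 rose and 1 fell between 3 and 5 dpf. Their median log2 fold change was 0.64, against 0.09 over all genes tested. Among all genes tested 18.1% rose and 14.1% fell. Each list below has few genes, so its count is given beside these shares and nothing is read from it alone. Without 3 dpf replicates 1, 2 and 3 in turn, 2 of 37, 5 of 37 and 6 of 38 pathway genes rose. Of all genes tested, 1777 of 23298, 2120 of 23244 and 2884 of 23264 rose in the same runs. When libraries were scaled by their size alone, 7 of 35 rose, against 2512 of 22386 among all genes. By DESeq2 14 of 35 rose, against 5087 of 22386. The pathway share was below that of all genes without 3 dpf replicate 1 and above it in the other runs named here.

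The enzymes that make UDP-GlcNAc, the substrate of chitin synthase, included 4 of 8 genes that rose. The symbols of these genes are written as in human, and the roles given are those of the mammalian enzymes. GFPT2, which starts the pathway by aminating fructose phosphate, measured 73.5, 79.5 and 41.8 CPM at 3 dpf, then 136.9, 131.2 and 102.9 CPM at 5 dpf, with no overlap. Its log2 fold change was 0.93 (SE 0.28, edgeR adjusted p = 0.0388), and the call ended without any 1 of the 3 dpf libraries, without 5 dpf replicate 2 or 3, and with library size as the only scaling (edgeR adjusted p = 0.0522 to 0.104).

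GNPNAT1, which adds the acetyl group, rose, with 42.2, 43.1 and 24.1 CPM at 3 dpf and then 165, 93.6 and 59.7 CPM at 5 dpf (log2 fold change 1.54, SE 0.41, edgeR adjusted p = 0.0249). UAP1, which forms UDP-GlcNAc itself, rose, with 29.1, 34.0 and 25.8 CPM at 3 dpf and then 113.5, 63.9 and 49.6 CPM at 5 dpf (log2 fold change 1.35, SE 0.32, edgeR adjusted p = 0.0174). By TMM-scaled CPM both genes were highest in 5 dpf replicate 1, as chs1 was. That library had a TMM factor of 0.612. With library size as the only scaling it was not the highest for either gene, whereas the log2 ratio of chs1 there was 1.52. Both calls ended without any 1 of the 3 dpf libraries (edgeR adjusted p = 0.0544 to 0.0836).

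UAP1L1, a relative of UAP1, passed narrowly with a log2 fold change of 0.64 (SE 0.21, edgeR adjusted p = 0.0498), and its call ended in 9 of 14 alternatives (largest edgeR adjusted p 0.267). GFPT1 went from 52.1 to 55.5 CPM at 3 dpf to 73.3 to 121.6 CPM at 5 dpf and did not pass (log2 fold change 0.73, SE 0.24, edgeR adjusted p = 0.0526). PGM3, which moves the phosphate, did not pass either (log2 fold change 0.42, SE 0.17, edgeR adjusted p = 0.093). The 1 gene that fell, a GPI copy (ENSDARG00000103826) of the isomerase of sugar phosphates, was low, at 3.25 ± 0.4 CPM at 3 dpf and 1.14 ± 0.62 CPM at 5 dpf (SD, n = 3 per age). The fitted log2 fold change stood at -1.51 (SE 0.48, edgeR adjusted p = 0.0476), and the call ended in 8 of 14 alternatives (largest edgeR adjusted p 0.166). The abundant GPI copy (ENSDARG00000012987) stood at 134.8 to 180.5 CPM at 3 dpf and 201.5 to 385.6 CPM at 5 dpf and did not pass (edgeR adjusted p = 0.117).

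Among the carriers that move UDP-sugars into the Golgi or endoplasmic reticulum, 2 of 6 rose. SLC35A3 (ENSDARG00000020981), known in mammals as a Golgi carrier of UDP-GlcNAc, measured 0.563, 1.39 and 0.977 CPM at 3 dpf, then 30.5, 28.0 and 14.6 CPM at 5 dpf. Every 5 dpf library was over every 3 dpf library by a wide margin. In these TMM-scaled values 5 dpf replicate 1 was close to replicate 2, unlike for chs1. The log2 fold change was 4.64 (SE 0.45, edgeR adjusted p = 0.00151), and the call held in all 14 alternatives. The second SLC35A3 copy (ENSDARG00000013222) was at 10.2 to 13.3 CPM at 3 dpf and 7.52 to 13.1 CPM at 5 dpf. SLC35D2, a related carrier, also rose, going from 8.80 ± 1.29 to 17.8 ± 1.67 CPM (log2 fold change 1.02, SE 0.20, edgeR adjusted p = 0.00907), and its call ended without 3 dpf replicate 1 (edgeR adjusted p = 0.0621) and with library size as the only scaling (edgeR adjusted p = 0.108).

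Of the enzymes that recover or break down free GlcNAc, 2 of 5 rose. NAGK, the kinase that recovers the free sugar, rose, with means of 11.7 ± 1.95 and 26.0 ± 10.3 CPM (log2 fold change 1.15, SE 0.30, edgeR adjusted p = 0.025). AMDHD2, which removes the acetyl group of the phosphorylated sugar, rose, with means of 13.2 ± 3.24 and 35.2 ± 13.6 CPM (log2 fold change 1.42, SE 0.32, edgeR adjusted p = 0.0147). The NAGK call ended without any 1 of the 3 dpf libraries (edgeR adjusted p = 0.0582 to 0.108), with the replicate number as a block (edgeR adjusted p = 0.052) and with library size only (edgeR adjusted p = 0.0578). The AMDHD2 call was lost when 3 dpf replicate 1 or 2 was left out (edgeR adjusted p = 0.0711 and 0.0585). The deaminase gene GNPDA1 overlapped between the ages, at 55.6 to 91.6 CPM at 3 dpf and 42.0 to 156.4 CPM at 5 dpf.

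Of the other glycosidases that act on GlcNAc chains 1 of 7 rose. It was HEXA, a lysosomal hexosaminidase subunit, at 4.74, 6.53 and 5.27 CPM at 3 dpf, then 20.4, 12.9 and 11.7 CPM at 5 dpf (log2 fold change 1.44, SE 0.28, edgeR adjusted p = 0.00873). That call ended without 3 dpf replicate 1 (edgeR adjusted p = 0.0526). chid1, a chitinase domain gene, stood at 8.77 ± 1.55 CPM at 3 dpf and 12.99 ± 2.32 CPM at 5 dpf and did not pass (edgeR adjusted p = 0.099).

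Of the genes for proteins that bind chitin or GlcNAc, 2 of 8 rose, against 18.1% of all genes tested. The median log2 fold change of this list was -0.24, below the 0.09 of all genes tested. In each of the other lists the median was above 0.09. FIBCD1 (ENSDARG00000074640), known in mammals as a receptor that binds chitin, was at 0 to 0.0382 CPM at 3 dpf and 0.406 to 0.667 CPM at 5 dpf (log2 fold change 4.65, SE 0.85, edgeR adjusted p = 0.0075). The other FIBCD1 copy (ENSDARG00000060393) was at 1.02 to 1.74 CPM and 0.449 to 1.34 CPM. LYSMD4, a gene with the LysM domain that binds GlcNAc chains in other proteins, rose, with means of 2.39 ± 0.26 and 9.03 ± 4.82 CPM (log2 fold change 1.91, SE 0.39, edgeR adjusted p = 0.0101), and its call ended without 3 dpf replicate 1 (edgeR adjusted p = 0.0546).

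The hyaluronan synthases, which also polymerise UDP-GlcNAc, were low throughout. HAS2 passed with 0.0925 ± 0.0525 CPM at 3 dpf and 0.407 ± 0.18 CPM at 5 dpf (log2 fold change 2.13, SE 0.65, edgeR adjusted p = 0.041), a call that ended in 8 of 13 alternatives (largest edgeR adjusted p 0.156). HAS1 and HAS3 did not reach the filter on low counts.

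**Figure D4:**
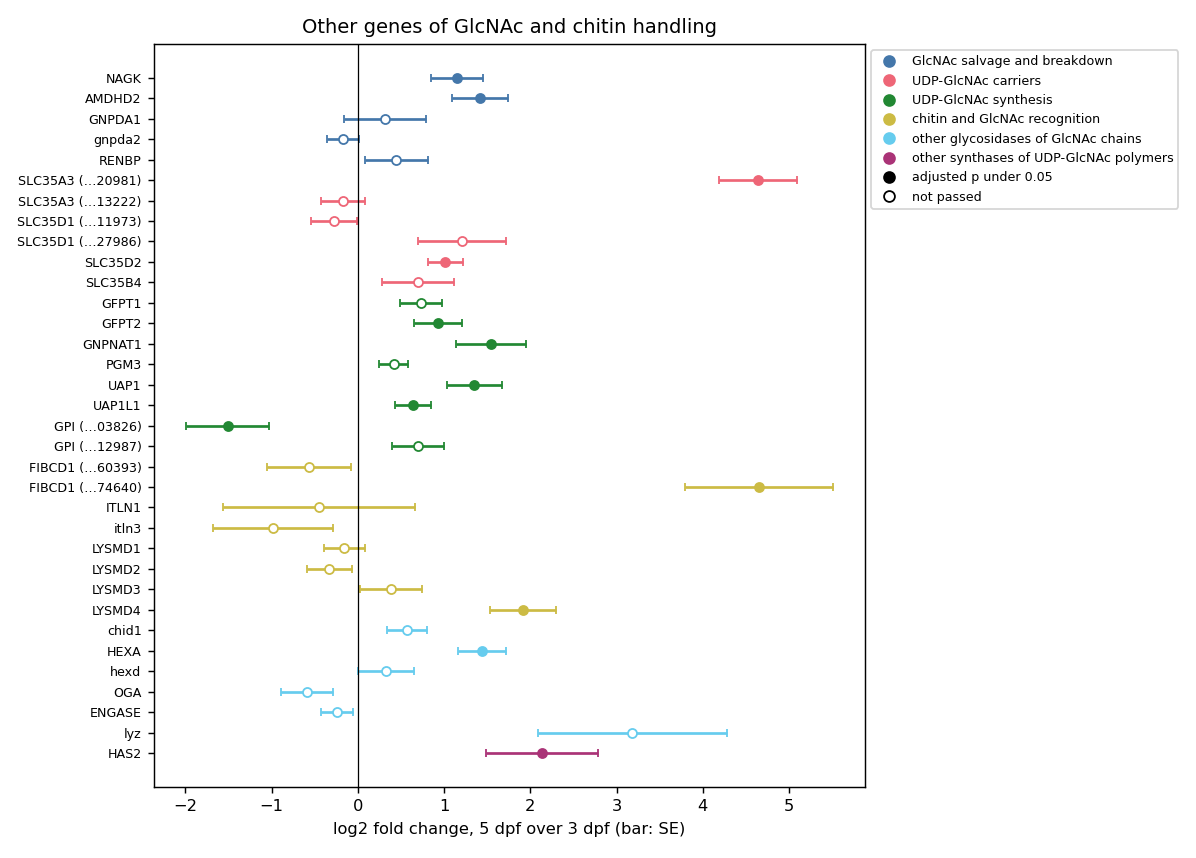
Log2 fold change of 5 dpf over 3 dpf with its SE for tested genes of GlcNAc and chitin handling outside the 7 genes, coloured by list. Filled points passed an adjusted p of 0.05. The filled points are 12 on the right of zero, led by FIBCD1 and SLC35A3 copies near 4.6, and 1 GPI copy on the left.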

How the data were processed

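The authors deposited raw counts of fragments per gene, 1 file per library. Read pairs were assigned to exons and summed by gene with featureCounts 1.6.3, per the file headers, on the Ensembl release 115 annotation of GRCz11, with strand setting 2. Trimmomatic 0.38, STAR 2.7.11 and, for counting, Subread 1.6.3 appear in the submitters' processing notes. The header sets no option to count reads that map to several places.

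Genes were tested with edgeR 4.0.16 in R 4.3.3 (quasi-likelihood F-test, two-sided, age as the only term, TMM scaling) after filterByExpr (minimum count 10, minimum total 15), which left 22386 genes. All 7 members passed. SEs are the log2 fold change over the square root of F. TMM factors were 1.02, 1.00 and 1.11 at 3 dpf and 0.612, 1.14 and 1.27 at 5 dpf. Log2 CPM used a prior count of 2. DESeq2 1.42.0 was an alternative. The fit was tested on simulated data. Symbols came from a table of Ensembl names (29201 of 32520 genes). Of marker entries, 80 matched as written, 19 after a copy suffix was dropped and 9 not at all. Every library carries batch label 1. Since each library is a pool, p-values reflect spread between libraries, which may be technical. The members and lists were chosen with earlier results of these data known. Named genes were all members, every called pathway gene, the 5 nearest profiles to chs1 and chia.2, and the most abundant gene of marker lists. Most abundant means the highest mean CPM over all 6 libraries. Genes that did not pass were named for comparison after their values were seen. 1 tested pathway gene is in the counts but is not reported or plotted here. No sequences were used here.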

Additional observations from a re-analysis of the deposited data

How the results depend on the processing

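All 7 members kept a positive log2 difference in every alternative run. Without 1 library in turn it ran from 2.94 to 4.77 for chs1, 4.60 to 6.92 for chia.1, 6.13 to 8.74 for chia.2, 2.24 to 3.96 for chia.3, 0.03 to 0.93 for chia.4, 0.92 to 1.56 for chia.5 and 0.22 to 0.80 for chia.6. Without both 5 dpf replicate 1 and 3 dpf replicate 3 it was 2.65, 4.29, 5.75 and 1.98 for chs1 and chia.1 to chia.3. Without length, the chitinase level per chs1 level was 7.22 at 3 dpf and 15.5 at 5 dpf, against 16.1 and 25.4 with length. The share of chia.4 to chia.6 ran from 73.4 to 87.4% at 3 dpf and 6.40 to 14.2% at 5 dpf without 1 library in turn.

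Genes called higher and lower numbered 4045 and 3149, against 2512 and 1337 with library size only, 1777 to 5748 and 1226 to 4880 without 1 library in turn, and 6294 and 5608 without both libraries. Pathway genes that rose numbered 7 with library size only and 2 to 14 without 1 library in turn. Of pathway genes, 0 fell by edgeR with upper quartile scaling, with library size only and with a filter of 1 CPM in 3 libraries, where 1, 0 and 1 were lower at an unadjusted p of 0.05. By DESeq2 1 fell. Without 1 library in turn 0 to 1 fell, and without both libraries 2. The cause of these changes was not tested. Over all genes the median log2 change was 0.09, and 0.22 after upper quartile scaling.

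No label says that equal replicate numbers share a day. Deviations of same-numbered libraries correlated at 0.0923, -0.217 and 0.193 across genes, and not every library correlated best with its own number. With the replicate number as a block 5638 genes were called, 10 pathway genes rose and 1 fell, and the members' log2 differences ran from 0.18 for chia.4 to 7.44 for chia.2. The spread between pooled libraries may be technical, and chia.4, with 76 counts in its lowest library, was the least deeply counted member.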

Other observations

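Genes within 40 kb of the 3 loci, a window chosen after the values were seen, were tested where they passed the filter, 3 beside chia.1 to chia.3, 6 beside chs1 and 4 beside chia.4 to chia.6. Of these, pm20d1.1 and si:ch1073-291c23.2 passed. Among all genes tested 32.1% passed in either direction, so nothing is read from the number of neighbours that did. pm20d1.1 (chromosome 23, 18020928 to 18030399) is a peptidase family gene near the row of chia.4 to chia.6, with pm20d1.2 between them. pm20d1.1 measured 3.72 ± 3.14 CPM at 3 dpf and 219, 17.8 and 21.9 CPM in the 5 dpf replicates (log2 fold change 4.54, SE 1.16, edgeR adjusted p = 0.0227). It was highest in 5 dpf replicate 1, where chia.4 and chia.6 were lowest. Its neighbour pm20d1.2 lies next to chia.6 on the other strand and measured 95.7, 20.4 and 26.8 CPM in the 5 dpf replicates (edgeR adjusted p = 0.0501). Thus chia.6 and pm20d1.2, adjacent on chromosome 23, had opposite orders of the 5 dpf libraries.

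Near chs1, si:ch1073-291c23.2 rose, with means of 0.293 ± 0.167 and 3.19 ± 1.52 CPM (log2 fold change 3.44, SE 0.59, edgeR adjusted p = 0.00607). The RNA helicase gene DDX21 stood at 207 ± 32.3 and 310 ± 129 CPM and did not pass (edgeR adjusted p = 0.199). Near chia.3, with an unnamed gene between them, ovgp1, named for a chitinase-like oviduct protein of mammals, had at most 68 counts in a library.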
